A study of Homo sapiens with 40 samples.

Results

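The regions described here are the broad H3K9me3 domains of A549 cells labelled as SETDB1 knockout. They are the peaks of the knockout H3K9me3 list whose width, end minus start, was at least 100 kb. In all, 676 of the 53949 knockout H3K9me3 peaks met this width, which is 1.25% of the peaks and 17.3% of the length the list covers. The domains were chosen by the width of the knockout peaks, so their knockout H3K9me3 is a description only, and the measures that the rule did not use are the compartment signal, the control H3K9me3 list and the other marks.

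A549 is an established human lung adenocarcinoma line with a K-RAS G12S mutation. The control group (CT) is labelled as A549 with no further treatment named, and the knockout group (KO) is A549 in which SETDB1 was targeted by CRISPR/Cas9 with a guide RNA carried on the PX458 plasmid. Whether the knockout cells are 1 clone or a pool is not given in the sources used here. The series holds 40 samples, of which this account uses 3 RNA-seq libraries per genotype, 2 in situ Hi-C libraries per genotype (DpnII digestion) and ChIP-seq libraries for CTCF and for the histone marks H3K4me3, H3K27ac, H3K27me3 and H3K9me3, 2 for each target in each genotype. Peaks and topologically associating domains (TADs) were deposited as 1 list per genotype, so they carry no replicate error, while the compartment signal was deposited per Hi-C library. All coordinates are on hg19.

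SETDB1 is a histone methyltransferase that deposits H3K9me3, a mark of constitutive heterochromatin, on euchromatic repeats and on silenced genes. H3K27me3 is laid down by Polycomb repressive complex 2 and marks facultative heterochromatin, whereas H3K27ac and H3K4me3 mark active enhancers and promoters. In Hi-C maps, heterochromatin groups into the B compartment and active chromatin into the A compartment, and CTCF is the DNA-binding factor found at many TAD borders.

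The targeted gene was checked first. SETDB1 (ENSG00000143379) measured 37.5, 39.6 and 38.7 CPM (counts scaled to library size) in the 3 control libraries and 23.4, 21.2 and 21.1 CPM in the 3 knockout libraries, and the genotypes did not overlap. The log2 fold change was -0.82 (SE 0.060, adjusted p = 1.7e-12, edgeR quasi-likelihood test with Benjamini-Hochberg adjustment), where 30.0% of the 17767 genes tested were called lower in the knockout. SETDB1 transcript was thus lower but still present, at a mean of 21.9 CPM against 38.6 CPM, and this check does not show loss of the protein. Total gene counts ranged from 18065062 to 48364919 per library. Among the markers of the labelled cell type, the epithelial keratins KRT8 and KRT18 were high in both genotypes (KRT8 2271 CPM ± 139 in control and 6594 CPM ± 261 in knockout, SD, n = 3), while the surfactant gene SFTPA1, the fibroblast gene DCN and the T-cell gene CD3E had 0 counts in every library. The other epithelial markers ranged widely. In control and knockout, EPCAM measured means of 4.01 and 10.8 CPM and CDH1 27.1 and 52.4 CPM. KRT19 measured 74.0 and 416 CPM and KRT7 1549.5 and 1661.7 CPM. Some other members of the lists that held SFTPA1, DCN and CD3E were not at 0. The lipid transporter ABCA3, on the alveolar type 2 list, measured a mean of 64.7 CPM ± 3.57 in control and 83.3 CPM ± 2.65 in knockout (SD, n = 3). The fibroblast genes COL1A1, COL3A1 and PDGFRA measured means of 3.10, 0.320 and 1.30 CPM in control and 3.83, 0.873 and 0.128 CPM in knockout. Of the endothelial markers, CDH5 measured 0.289 CPM ± 0.083 in control and 4.53 CPM ± 0.67 in knockout (SD, n = 3) and VWF 0.028 CPM in both, and any part of this in the chromatin values was not tested. Whether the libraries came from separate cultures is not given, so p-values here measure the spread between these libraries.

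The domains were 100011 bp to 589 kb wide with a median of 136 kb (quartiles 115 and 179 kb), and together they covered 108 Mb. Widths of at least 200 kb were found for 129 of the 676 domains and widths of at least 400 kb for 7. The widest lay at chr16:7189524-7778142 (589 kb). It was followed by chr19:31261855-31806555 (545 kb), chr12:24103326-24590301 (487 kb), chr21:22373509-22816430 (443 kb) and chr15:27667635-28097497 (430 kb). At the limit of the rule, chr11:97068415-97168425 (100011 bp) and chr1:158734458-158834535 (100078 bp) fell just inside, and chr20:59090736-59190614 (99879 bp) and chr5:22363158-22463001 (99844 bp) fell just outside. The control list held 35 peaks of this width, and 2 of them overlapped a domain. Of all 102976 control H3K9me3 peaks, 7543 overlapped a domain, so most control peaks lay outside the domains. Per length they were denser inside, at 69.8 per Mb against 37.8 per Mb over all 100 kb bins of the Hi-C data.

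Each of the 22 autosomes and chromosome X held at least 1 domain, at very unequal densities. Over the sequence with a Hi-C value there were 25.5 domains per 100 Mb. Chromosome 21 had the highest density, with 93.5 per 100 Mb (30 domains, 16.8% of its assayed length). Chromosomes 16, 14 and 8 followed with 60.6, 53.6 and 52.4 per 100 Mb, and chromosome 8 held the most domains (73). The lowest densities were 3.12 per 100 Mb on chromosome 6 (5 domains), 3.17 on chromosome 22 (1 domain) and 4.92 on chromosome 4 (9 domains). The share of bins in the control B compartment ranged from 32.0% on chromosome 17 to 51.2% on chromosome X. It was 43.3% on chromosome 21, 38.4% on chromosome 6, 33.3% on chromosome 22 and 46.9% on chromosome 4, so the density did not follow the order of this share. The copy number of each chromosome in A549 was not measured here, and its part in the density was not tested.

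**Figure D1:**
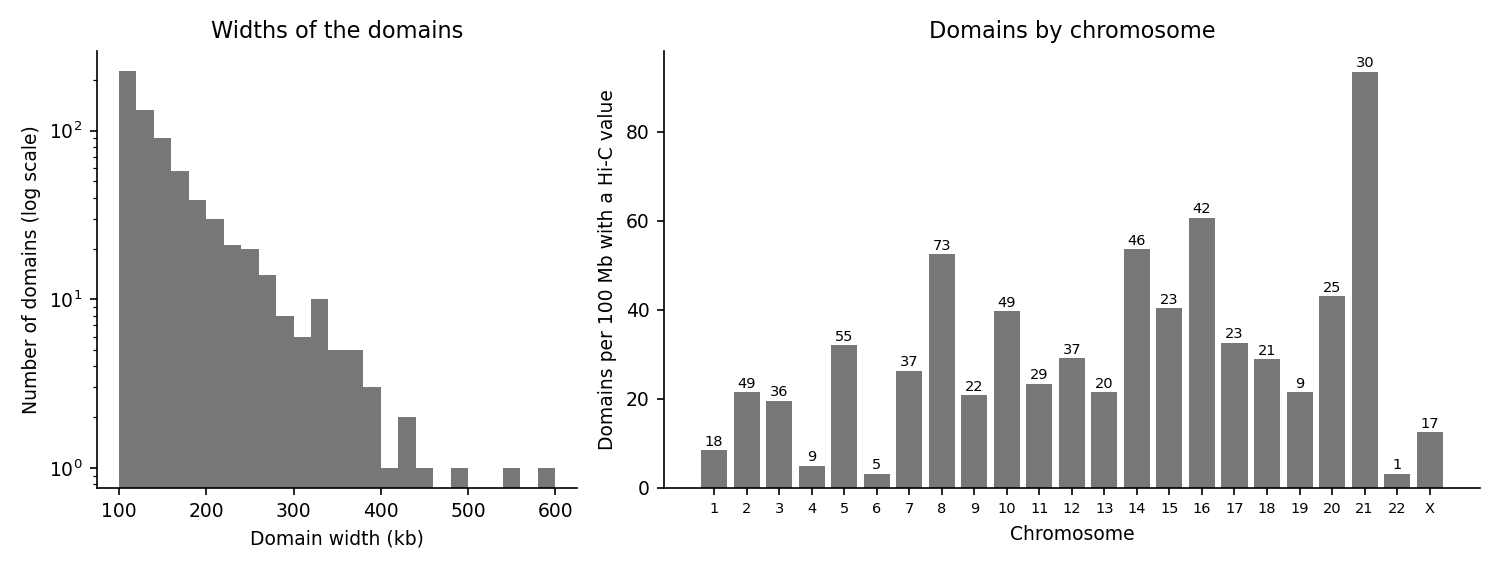
Left, histogram of domain widths (kb, bins of 20 kb) with the number of domains on a log axis. Right, domains per 100 Mb of sequence with a Hi-C value on each chromosome, with the number of domains above each bar; chromosome 21 stands highest at 93.5 and chromosomes 6 and 22 lowest at 3.12 and 3.17.

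The domains clustered. The gap to the next domain was at most 100 kb for 211 of 653 neighbouring pairs, and 330 of the 676 domains (48.8%) lay in 119 runs of 2 or more domains spaced this closely. The longest run spanned chr14:82940764-85117073, where 10 domains covered 89.3% of 2176 kb. On chromosome 21, 6 domains covered 98.6% of the 963 kb at chr21:31047870-32011243. The next knockout H3K9me3 peak outside a domain was also close. Of the 1259 gaps that flank domains, the median length was 1642 bp (quartiles 1174 and 3868 bp), 1011 (80.3%, Wilson 95% interval 78.0 to 82.4) were shorter than 5 kb and 8 were longer than 20 kb. Windows from 10 to 100 kb outside the domain edges had knockout H3K9me3 over 88.2% to 91.7% of their length. Most domain edges were thus short breaks within longer H3K9me3 tracts. When knockout peaks up to 5 kb apart were joined before the width minimum was applied, 1762 domains of 454 Mb resulted, up to 2934 kb wide, and 492 of these held the domains described here.

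In the control, the same sequence carried H3K9me3 in short peaks. Control H3K9me3 peaks covered 28.7% of the domain length, against 13.8% in control B bins outside the domains and 12.4% over all bins (100 kb bins of the Hi-C table, where B means a negative control signal). The peaks inside the domains had a median width of 3035 bp, compared with 2303 bp for the whole control list. Control coverage varied widely between domains, with quartiles of 6.88%, 22.3% and 44.7%. It reached at least 50% in 124 domains and at least 80% in 11, while 27 domains had no control H3K9me3 peak. The highest value, 98.7%, was at chr19:28819820-28923437. The widest domain, on chromosome 16, went from 62 separate control peaks over 67.9% of its length to 1 knockout peak. Over the length of all domains, 26.0% had only H3K9me3 in the control, 11.1% only H3K27me3, 2.75% both marks and 60.2% neither. The share with neither was 68.3% in the peaks of 50 kb to under 100 kb and 69.7% in control B bins outside the domains.

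H3K27me3 covered little of the domains in the knockout. Control H3K27me3 peaks covered 13.8% of the domain length (14.9 Mb), close to the 13.7% over all bins, and knockout H3K27me3 peaks covered 0.731% (0.791 Mb). With knockout H3K9me3 peaks up to 5 kb apart joined, knockout H3K27me3 covered 1.82% of the domain length. Of the control H3K27me3 length in domains, 3.22% still had a knockout H3K27me3 peak. The same share was 4.88% in the 1699 knockout H3K9me3 peaks of 50 kb to under 100 kb and 42.4% in control B bins outside the domains, where coverage went from 20.6% to 12.3%. These values rest on 1 list per genotype and have no test. A control H3K27me3 peak lay in 272 domains (40.2%, Wilson 95% interval 36.6 to 44.0). The peak was present only in the control in 190 of them and in both genotypes in 82, while 17 domains had one only in the knockout.

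Control H3K27me3 was concentrated in a minority of domains. It was absent from 404, covered under 20% of the length in 117 and at least 20% in 155. These 3 classes differed in control H3K9me3, which covered 35.7%, 24.0% and 15.9% of the length. The highest control H3K27me3 coverage was at chr14:33968358-34133493, where 97.8% of the control length became 0% in the knockout. The domain at chr15:27667635-28097497 went from 63.1% to 0% and the one at chr14:79065471-79398393 from 55.2% to 0%. Among the widest domains with the mark, chr19:31261855-31806555 had coverage in both genotypes, with 18.7% in the control and 4.97% in the knockout. The widest, on chromosome 16, had 0.808% in the control and 1.82% in the knockout, all within its left margin in the map of that region.

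**Figure D2:**
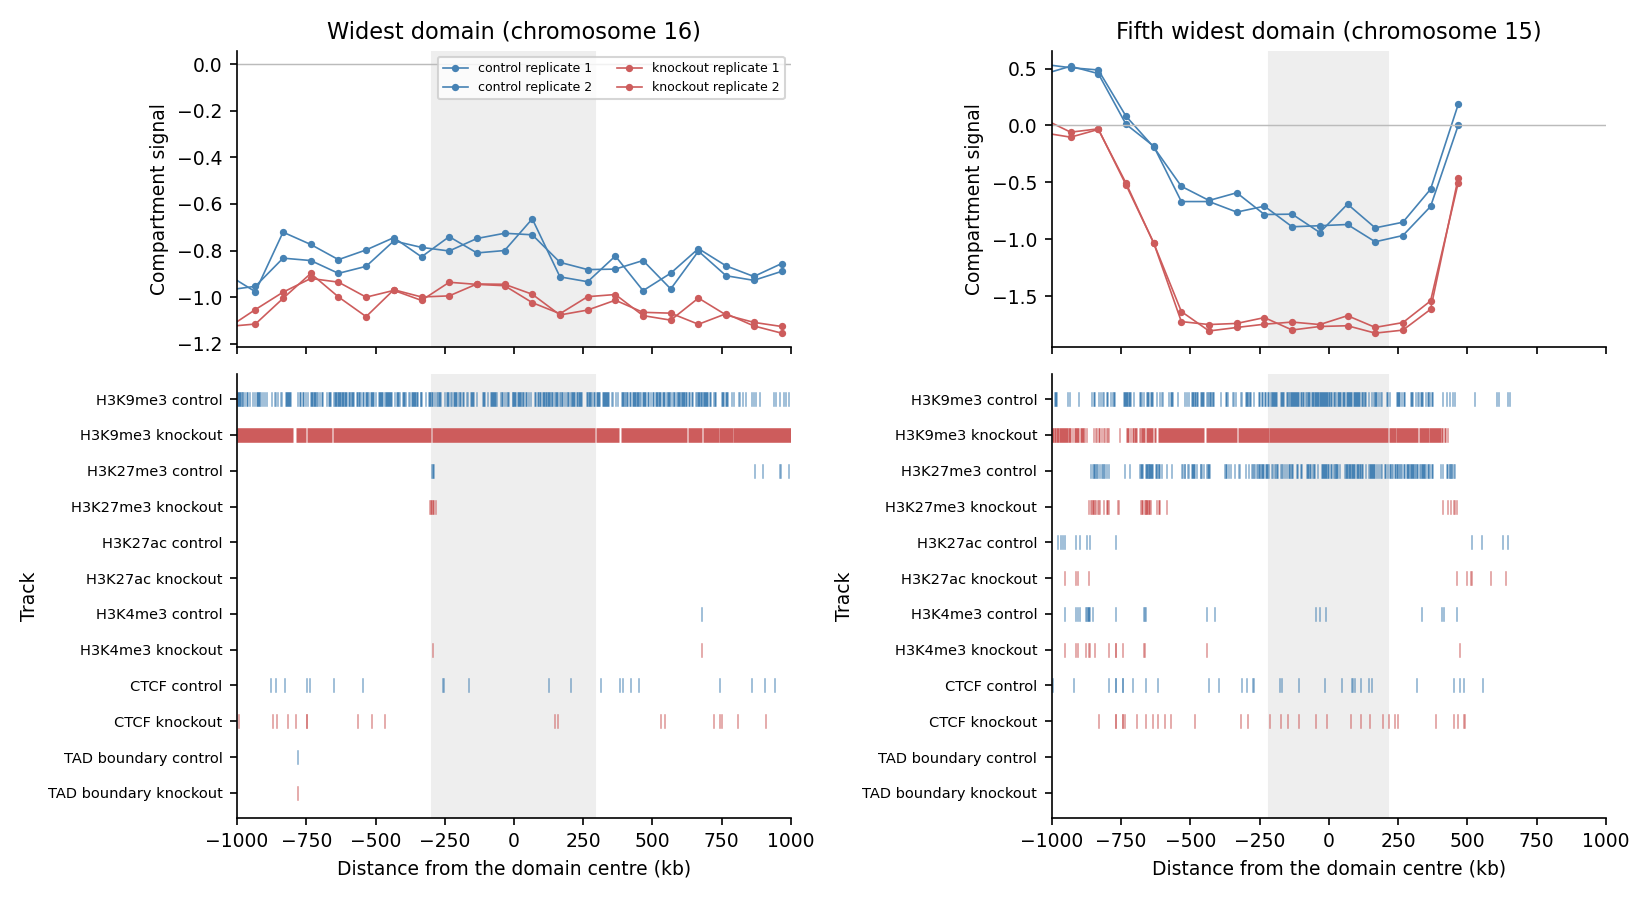
Map of 2 Mb around the widest domain (left) and the fifth widest (right), with distance from the domain centre in kb and the domain shaded. Top, compartment signal (deposited score, 100 kb bins) of each Hi-C library; bottom, deposited peaks and TAD boundaries per genotype, drawn at a minimum width of 3 kb. On chromosome 16 many short control H3K9me3 peaks face 1 wide knockout peak and both knockout libraries lie below both control libraries over the domain as a whole (-0.999 and -0.988 against -0.806 and -0.787); on chromosome 15 control H3K27me3 over 63.1% of the domain is absent in the knockout and the knockout signal lies near -1.76.

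The domains lay in the B compartment in both genotypes and, as deposited, their signal was lower in the knockout. The compartment signal is a deposited score, positive for A and negative for B, given here as the overlap-weighted mean over 100 kb bins. It could be read for 674 domains. Their median was -0.844 and -0.833 in the 2 control libraries and -0.997 and -0.991 in the 2 knockout libraries, so the libraries of a genotype lay close together and the genotypes apart. The signal was negative in 665 of 674 domains in the control (98.7%, Wilson 95% interval 97.5 to 99.3) and in 674 of 674 in the knockout, against 44.8% and 44.9% of all bins. It was lower in the knockout in 552 of 674 domains (81.9%), with a median difference of -0.111 (quartiles -0.281 and -0.0245), where the median difference was -0.0449 over all bins and -0.123 over domain bins. The median absolute difference was 0.131 between genotypes, compared with 0.0297 between control libraries and 0.0247 between knockout libraries. The difference was below -0.5 in 78 domains and above 0.2 in 6.

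The difference was tested over all 26496 bins. Of the 1083 bins at least 50% inside domains, 571 (52.7%) were called lower in the knockout and 41 (3.79%) higher (limma, Benjamini-Hochberg adjusted p under 0.05). Over all bins, 37.3% were called lower and 21.6% higher, 58.8% in either direction. In the 10274 control B bins outside the domains, 41.3% were lower and 30.6% higher. Fits with 1 library left out are not compared here, because the matching shares over all bins were not listed. Both knockout libraries lay below both control libraries in 766 of the 1083 domain bins (70.7%), where 48.0% of all bins did so. The spread of the signal over all bins was larger in the knockout (SD 0.739 and 0.735) than in the control (SD 0.697 and 0.698). With each library scaled to the same SD, 41.7% of domain bins were called lower and 8.68% higher, against 38.5% and 20.3% of all bins. The share called lower was then near that of all bins, and the median difference was -0.0983 SD in domain bins and -0.0782 SD over all bins. After scaling, 467 of 674 domains (69.3%) were lower, with a median difference of -0.0862 SD.

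The difference varied with control H3K27me3. In the 402 domains without control H3K27me3 and with a signal, the median was -0.914 and -0.900 in the control libraries and -0.972 and -0.954 in the knockout libraries. In the 117 domains with under 20% it was -0.777 and -0.750 in the control and -1.01 in both knockout libraries. In the 155 domains with at least 20% it was -0.664 in both control libraries and -1.06 and -1.04 in the knockout libraries. The classes were thus spread in the control, from -0.912 to -0.664, and close together in the knockout, from -0.966 to -1.04. The median difference was -0.0588, -0.210 and -0.411 in the 3 classes, and the signal was lower in 293 of 402, 106 of 117 and 153 of 155 domains. Spearman's rho across domains between control H3K27me3 coverage and the difference was -0.66 (n = 674 domains, a description, since domains share libraries and chromosomes). With the control signal, which enters the difference, rho was 0.51, and with the knockout signal it was -0.17. On each of the 17 chromosomes with at least 3 domains of both kinds, the median difference was lower with at least 20% H3K27me3 (-0.857 to -0.152) than with none (-0.237 to 0.00398).

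Scaling each library to the same SD left the H3K27me3 classes ordered as before and removed most of the difference where the mark was absent. The median difference was then -0.00897 SD without control H3K27me3, where 212 of 402 domains were lower, -0.219 SD with under 20% and -0.492 SD with at least 20%, where 153 of 155 were lower. Per bin, limma called 31.6% of the 659 domain bins without control H3K27me3 lower and 5.46% higher as deposited, and 17.0% lower and 12.4% higher after scaling. Both shares called lower were below those of all bins (37.3% and 38.5%). Of the 250 bins with at least 20%, 94.0% were called lower as deposited and 90.8% after scaling, and 0 were called higher under either. The size of the difference in domains without H3K27me3 therefore depended on the scale of the signal, and little of it was left after scaling. The lower signal in domains rich in H3K27me3 did not depend on the scale under these scalings.

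Bins outside the domains with knockout H3K9me3 over at least 50% of their length showed the same order. In these 4535 control B bins, limma called 25.1%, 66.1% and 87.2% lower in the 3 H3K27me3 classes, with median differences of -0.0309, -0.194 and -0.331. The 5739 control B bins with less knockout H3K9me3 were higher where H3K27me3 was absent, with a median difference of 0.445 and 74.9% called higher, and had a median difference of -0.115 with at least 20% H3K27me3. The knockout H3K9me3 peaks of 50 kb to under 100 kb had a median difference of -0.111 and were lower in 1332 of 1686 (79.0%). The lower knockout signal was therefore not limited to the domains.

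**Figure D3:**
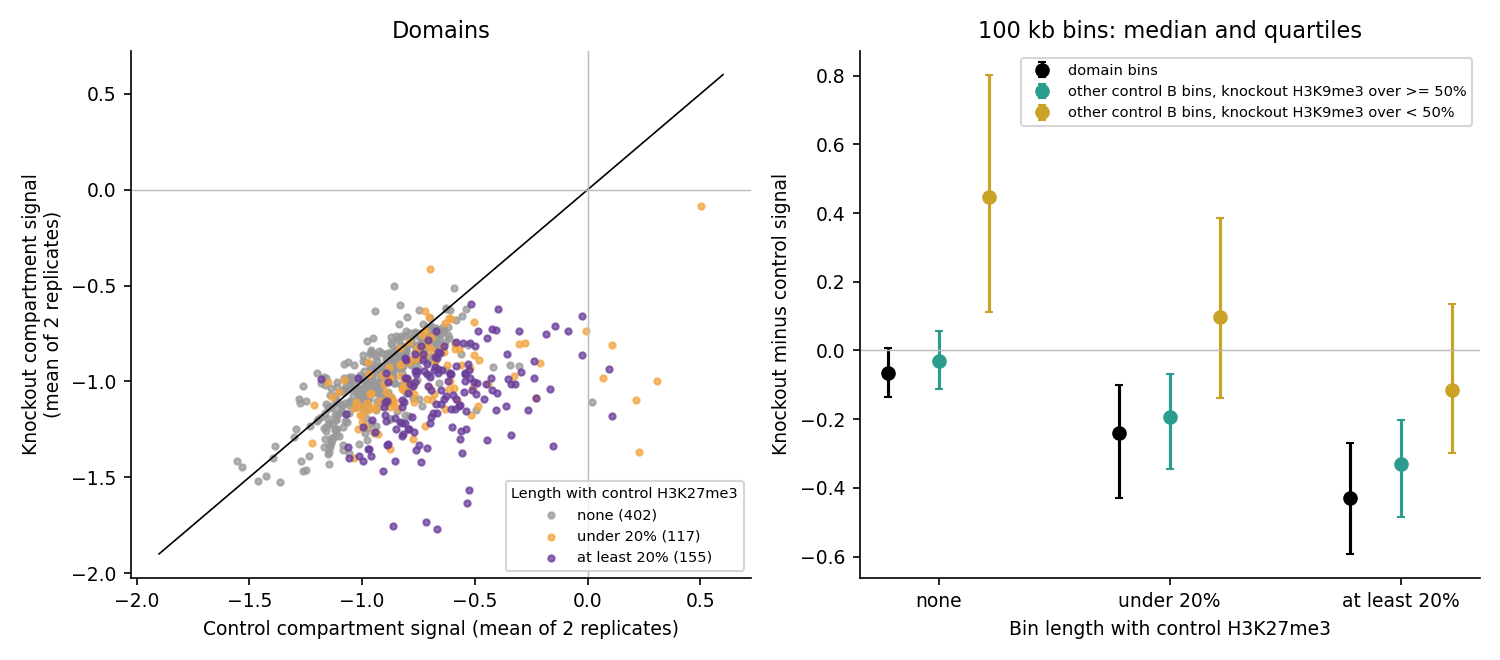
Left, control against knockout compartment signal (mean of 2 libraries each) of 674 domains, coloured by the length with control H3K27me3; the line marks equal values. Right, knockout minus control signal of 100 kb bins by control H3K27me3 (points, medians; bars, quartiles) for domain bins and for control B bins outside the domains with knockout H3K9me3 over at least or under 50% of the bin. Domains rich in control H3K27me3 lie farthest below the line, and domain bins go from a median of -0.0642 with none to -0.429 with at least 20%.

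Chromosomes differed in how far the signal moved. All 23 domains on chromosome 17 were lower in the knockout (median difference -0.341), as were 36 of 37 on chromosome 12 (-0.238). On chromosome 9, 5 of 22 were lower and the median difference was 0.0414, the only chromosome with a median above 0. The lowest control signal of any domain was there, at chr9:1424663-1558718, which measured -1.58 and -1.53 in the control libraries and -1.45 and -1.38 in the knockout libraries. The 10 domains of the longest run, on chromosome 14, had no control H3K27me3 and no H3K27ac or H3K4me3 peak in either genotype. Their differences ran from -0.0145 to 0.108, with 3 of 10 lower. The largest positive difference was at chr5:4015543-4189545, from -0.840 and -0.877 in the control libraries to -0.525 and -0.475 in the knockout libraries. That domain already had control H3K9me3 over 86.2% of its length. The widest domains on chromosomes 2 (chr2:59916139-60262285) and 5 (chr5:102927027-103206338), with H3K27me3 over 0.992% and 0% of the control length, had differences of -0.0764 and -0.110. The widest on chromosome 10 (chr10:130432595-130807825), with control H3K27me3 over 31.3%, had a difference of -0.276, and the widest on chromosome 14 (chr14:79065471-79398393), with 55.2%, had one of -0.442.

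The 3 lowest knockout signals belonged to 3 neighbouring domains on chromosome 15. The lowest of all, at chr15:27438781-27550616, measured -0.629 and -0.711 in the control libraries and -1.75 and -1.79 in the knockout libraries. Its control H3K27me3 coverage of 31.4% became 0% in the knockout. The fifth widest domain, separated from it by another domain, measured -0.824 and -0.900 in the control libraries and -1.78 and -1.73 in the knockout libraries.

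In the control, 9 domains had a positive mean signal, and all 9 were negative in both knockout libraries. The largest negative difference of any domain was among them, at chr3:35682990-35860145, which measured 0.246 and 0.214 in the control libraries and -1.36 and -1.38 in the knockout libraries. This domain had 4 control H3K4me3 peaks and none in the knockout, with H3K9me3 over 0.588% and H3K27me3 over 0.960% of its length in the control. The domain at chr12:115168504-115536881 measured 0.307 and 0.309 in the control libraries and -0.981 and -1.01 in the knockout libraries. It held 11 H3K27ac and 7 H3K4me3 control peaks and none of either in the knockout. Its neighbours at chr12:115539258-115723115 and chr12:115895280-116106046 had control means of 0.215 and 0.109 and knockout means of -1.10 and -1.18. The highest signal in both genotypes was at chr15:26546220-26731260, with 0.514 and 0.493 in the control libraries and -0.0698 and -0.0995 in the knockout libraries. The domain at chr2:18359497-18466107 went from a mean of 0.109 to -0.811 and from 3 to 0 H3K27ac peaks. The domain at chr6:73390150-73509903 had control libraries of opposite sign, at -0.0128 and 0.0540, and measured -1.08 and -1.13 in the knockout libraries, with no active peak in either genotype. A further 2 were on chromosome 8. The wider one, of 382 kb, went from 9 H3K27ac and 12 H3K4me3 peaks to 0 and 1.

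Active marks were rare in the domains in the control and rarer in the knockout. H3K27ac peaks numbered 76 in the control, in 44 domains, and 11 in the knockout, in 8 domains, or 0.703 and 0.102 per Mb. All bins had 20.5 and 21.6 per Mb, and control B bins outside the domains had 3.33 and 6.21. Knockout H3K9me3 peaks of 50 kb to under 100 kb also declined, from 0.465 to 0.129 per Mb. Of the 76 control peaks, 27 lay in 3 domains, those on chromosomes 12 and 8 above and chr17:12358919-12689930, which went from 7 to 0. The 8 domains with H3K27ac in the knockout held 1 or 2 peaks each, with 2 at chr17:68189153-68431959, chr16:25885338-26080615 and chr17:54138396-54264327. Of these 8, 5 also had a control H3K27ac peak. The signal was lower in the knockout in 41 of the 44 domains with control H3K27ac, with a median difference of -0.328.

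H3K4me3 peaks went from 258 in 146 domains (2.39 per Mb) to 98 in 67 domains (0.907 per Mb). In control B bins outside the domains the densities were 7.84 and 14.7 per Mb, so the counts there moved in the opposite direction. Knockout H3K9me3 peaks of 50 kb to under 100 kb moved as the domains did, from 2.01 to 1.22 per Mb. The decline was thus not limited to the domains. Of the control H3K4me3 peaks in domains, 62 of 258 (24.0%, Wilson 95% interval 19.2 to 29.6) overlapped a knockout peak by at least 1 bp. This share was 24.5% in the knockout H3K9me3 peaks of 50 kb to under 100 kb and 80.4% in control B bins outside the domains. A peak was present only in the control in 97 domains, in both genotypes in 49 and only in the knockout in 18. The decline differed by H3K27me3 class. Domains with a peak numbered 35 in the control and 29 in the knockout where control H3K27me3 was absent, 45 and 21 with under 20%, and 66 and 17 with at least 20%. Neither H3K27ac nor H3K4me3 was found in 514 domains (76.0%) in the control and 607 (89.8%) in the knockout.

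The CTCF lists held about as many peaks in the domains in both genotypes, but few of the listed peaks overlapped. The domains held 1252 CTCF peaks in the control and 1231 in the knockout (11.6 and 11.4 per Mb), in 464 and 471 domains. Over all bins the density went from 8.82 to 12.6 per Mb and in control B bins outside the domains from 7.59 to 8.61. Only 74 of the 1252 control peaks (5.91%, Wilson 95% interval 4.73 to 7.36) overlapped a knockout CTCF peak, and 74 of the 1231 knockout peaks (6.01%) overlapped a control peak. These shared peaks lay in 64 domains. The shared shares were 4.48% and 4.99% in the knockout peaks of 50 kb to under 100 kb, 30.0% and 26.4% in control B bins outside the domains, and 55.4% and 38.6% over all bins. Counting a peak of the other genotype within 1 kb raised the shares in domains only to 7.35% and 7.47%. CTCF peaks in domains were about as wide as elsewhere in the control (median 236 bp against 243 bp for the whole list) and narrower in the knockout (255 bp against 290 bp).

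CTCF peaks in the domains also seldom coincided with promoter marks. An H3K4me3 peak of the same genotype overlapped 17 of the 1252 control peaks (1.36%) and 4 of the 1231 knockout peaks (0.325%), compared with 23.0% and 26.2% over the whole lists. The lists give positions only, so peak height could not be compared. Whether a CTCF peak in a domain recurs between libraries of 1 genotype was not tested, nor was its part in the low overlap between genotypes. The domain with the most CTCF peaks, chr19:31261855-31806555, held 14 in the control and 18 in the knockout. The fourth widest, on chromosome 21, held none in either.

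**Figure D4:**
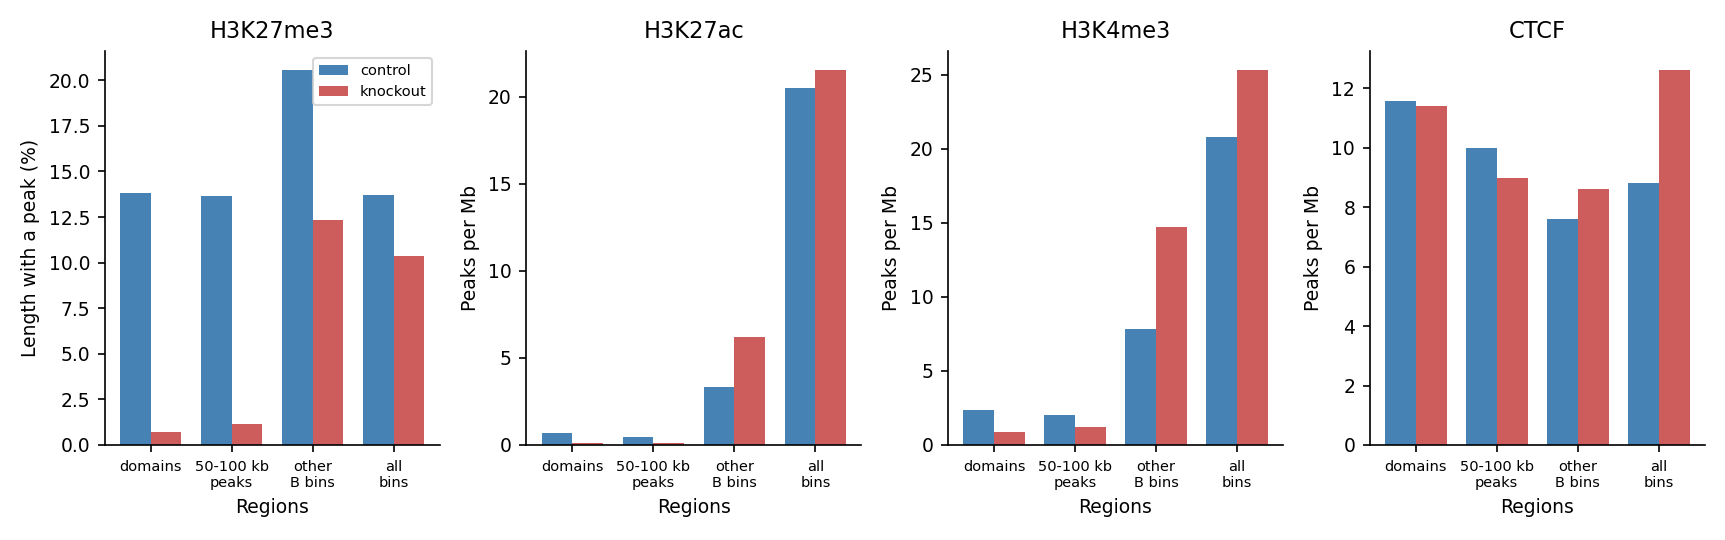
Length with an H3K27me3 peak (%) and H3K27ac, H3K4me3 and CTCF peaks per Mb in the domains, in knockout H3K9me3 peaks of 50 kb to under 100 kb, in control B bins outside the domains and in all bins, for the deposited control and knockout lists. H3K27me3 in domains goes from 13.8% to 0.731% and H3K4me3 from 2.39 to 0.907 per Mb, while CTCF stays at 11.6 and 11.4 per Mb.

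At the domain edges, H3K4me3 changed within 10 kb. In the 10 kb just outside the 1352 edges there were 7.10 H3K4me3 peaks per Mb in the control and 6.29 in the knockout, and in the 10 kb just inside 2.44 and 1.48. Windows from 10 to 100 kb outside had 2.51 to 5.03 per Mb in the control and 2.51 to 3.33 in the knockout. Of the 1011 gaps shorter than 5 kb that separate domains from the next H3K9me3 peak, 23 overlapped a control H3K4me3 peak and 19 a knockout one, so most gaps had none. Knockout H3K27me3 covered 2.84% of the 10 kb just outside, 1.71% just inside and 0.664% at 20 to 30 kb inside. Control H3K27me3 was nearly level across the edge, at 12.0% and 13.8%. CTCF peaks numbered 13.2 per Mb on both sides in the control, and 13.2 outside and 14.3 inside in the knockout. A CTCF peak lay within 20 kb of 37.4% of edges in the control and 36.1% in the knockout, against 29.8% and 29.7% for the edges of knockout peaks of 50 kb to under 100 kb.

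**Figure D5:**
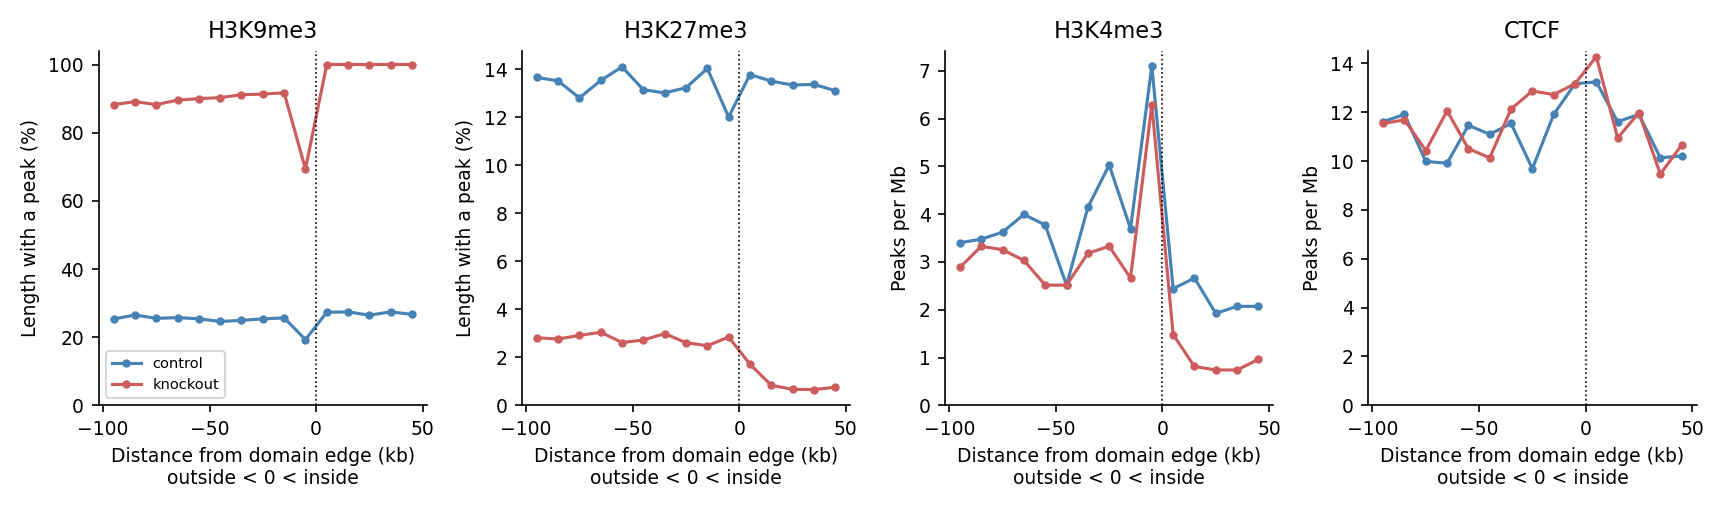
Length with an H3K9me3 or H3K27me3 peak (%) and H3K4me3 and CTCF peaks per Mb in 10 kb windows by distance from 1352 domain edges (kb; negative, outside; positive, inside), in the control and knockout lists. Knockout H3K9me3 is 100% inside by the choice of domains, dips to 69.4% in the first window outside and returns to about 91.7%; H3K4me3 peaks are highest in that first window, at 7.10 and 6.29 per Mb.

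The domains lay inside large TADs and away from their borders. No TAD boundary fell inside 657 of 676 domains in the control (97.2%, Wilson 95% interval 95.7 to 98.2) and 664 in the knockout (98.2%, 96.9 to 99.0). Boundaries inside the domains numbered 19 and 12, or 0.176 and 0.111 per Mb, against 2.65 and 2.72 per Mb for the whole lists and 1.60 and 1.75 per Mb in control B bins outside the domains. The TADs that held the domains had median widths of 1900 kb in the control and 1910 kb in the knockout. The median of all TADs was 300 kb in each list. These are unlike measures, since the first counts a TAD once for each domain wholly inside it. A region of 100 kb or more also cannot lie within a narrower TAD, so part of this contrast is built in. A domain covered a median of 7.78% and 7.89% of its TAD, and the domains fell in 272 and 266 different TADs with up to 13 in 1. Of the 1352 edges, 27 (2.00%) were within 20 kb of a control boundary and 18 (1.33%) within 20 kb of a knockout boundary, with median distances of 450 and 491 kb. The knockout peaks of 50 kb to under 100 kb had similar values, with 98.5% free of a boundary in each genotype and hosts of 1760 kb. Boundaries lie on a 20 kb grid, which limits these distances.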

How the data were processed

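Peak lists of H3K9me3, H3K27me3, H3K27ac, H3K4me3 and CTCF and TAD lists were deposited by the authors as hg19 positions, 1 list per genotype, with no height or p-value; how the 2 libraries of a genotype were combined is not given in the sources used here. The compartment signal was deposited by the authors as a score per 100 kb bin for each Hi-C library and each genotype, with 26496 bins complete; the method is not given in the sources used here. RNA-seq was deposited by the authors as a count per gene. The submitters' processing notes name Bowtie2 2.2.3, SAMtools 1.5, Picard, MACS2, STAR 2.6.1c and edgeR 3.30.0, without roles. The knockout H3K4me3 libraries are labelled with a digit missing and were grouped by title.

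Domains and comparison regions were chosen with earlier results of these data known. Here, coverage, peak counts (overlap of at least 1 bp) and distances were computed with Python 3.11.15, pandas 2.3.3 and numpy 2.4.6, and Wilson 95% intervals with scipy 1.17.1; they cover counting error only. Bins at least 50% inside domains were tested with limma 3.58.1 on the 4 library columns of all bins, and SETDB1 with edgeR 4.0.16 after expression filtering with TMM scaling; DESeq2 1.42.0 was an alternative. Both fits were also run on simulated data, with results not given here. The simulated Hi-C noise was smaller than the spread between libraries, and the RNA-seq dispersion was a set value. Those runs therefore do not show how the fits perform on these data. Correlations of same-numbered libraries' deviations were -0.00185 for Hi-C and 0.0709 to 0.211 for RNA-seq. These values cannot exclude that same-numbered libraries share a culture or batch. The labels do not say that they do, and the main fits used no pairing. Named domains are the 5 widest, the widest on each of the 5 chromosomes with most domains, those with the lowest and highest signals and differences, the highest control H3K9me3 and H3K27me3 coverage, the most knockout H3K27ac peaks and the longest run; other named domains (positive control signal, active peaks, most CTCF peaks, neighbours on chromosomes 12, 15 and 21) were chosen after their values were seen. Genes and sequence inside the domains were not analysed here.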

Additional observations from a re-analysis of the deposited data

How the results depend on the processing

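Of 83 alternatives, 61 were scored as the same and 22 as moved, among the results and alternatives listed here. Shares were scored by the Wilson interval of the main value, and counts and limma shares by a limit of 1.5 times. For shares of domain length the interval took the 676 domains as its sample size. It does not measure the error of a coverage, so the labels of those results are a convention only. The SETDB1 fold change was scored by its sign and adjusted p. A reversal could be scored for SETDB1 alone, and it did not reverse. The alternative that joined peaks up to 5 kb apart was chosen after seeing the data. The 676 domains became 263 with a minimum width of 150 kb and 1762 with peaks up to 5 kb apart joined. Control H3K9me3 coverage became 32.9% and 19.3% under these choices, and knockout H3K27me3 coverage became 1.82% with joining. With the 150 kb minimum, domains with a peak became 27.4% and 14.8% for H3K4me3 (control, knockout) and 81.7% and 81.4% for CTCF, and leaving out the outer 10 kb gave 64.2% and 64.5% for CTCF. Domains within 1 TAD became 99.0% and 99.3% when boundaries within 20 kb of the edges were ignored, and 92.3% and 93.6% with joining. Edges within 40 kb, in place of 20 kb, were 3.99% and 3.11% for TAD boundaries and 53.8% and 54.1% for CTCF.

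Domain bins called higher by limma became 8.68% with scaling to the same SD. Leaving out 1 Hi-C library at a time gave 42.5% to 51.2% lower and 2.03% to 4.06% higher, with 2.03% without knockout replicate 1 and 2.49% without knockout replicate 2, and 98.5% to 98.7% of domains negative in the control; the lone library is then assumed to vary like the others. With a replicate block, 53.0% of domain bins were lower and 3.88% higher, against 52.7% and 3.79% without it. Over all bins the shares were 38.1% and 22.2%, against 37.3% and 21.6%. The SETDB1 log2 fold change was -0.82 either way. SETDB1 ranged from -0.86 to -0.78 over its alternatives, every adjusted p under the threshold, and from -0.86 to -0.79 without 1 library. The search for genes inside domains was not run. Peak heights and replicate lists were not used here, so a difference between lists has no replicate error.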
